A study of Mus musculus with 6 samples.

Results

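Dynein light chains are the small subunits of the motor complex that carries cargo along microtubules toward their minus ends. Transcripts of 4 such genes, Dynll1, Dynll2, Dynlrb1 and Dynlt3, were followed in thymocytes of mice with and without a T-cell deletion of Klf4, which encodes a zinc-finger transcription factor. Every array probe that the platform annotation assigns to these symbols was taken, which gave 5 of 25697 probes, for 4 of 16593 named genes. Dynll2 had 2 probes and the other genes 1 each. The genes were chosen with the genotype difference of Dynll1 already known, so their genotype differences are given as descriptions, with no test.

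The knockout group held 3 mice of genotype Klf4fl/fl-CD4-Cre+ and the control group 3 mice of genotype Klf4fl/fl-CD4-Cre-. All 6 mice shared the floxed Klf4 alleles, the C57/BL6 background and an age of 8 to 10 weeks. Cre under Cd4 control acts from the double-positive (DP) stage on, and the controls carried no Cre, so the presence of Cre and the loss of Klf4 cannot be told apart. RNA came from DP and CD4 single-positive (SP4) thymocytes enriched by their CD4 protein, with 1 Illumina MouseRef-8 v2 array per mouse. Scores are given in z units, SDs of the probes of 1 array. It is not known here whether intensities or their logarithms were standardised, so no fold change is stated. Where differences are ranked across probes or marker scores are summed, the sizes are in z units only. They are not amounts of transcript.

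The deleted gene and the cell identity were checked first. On Klf4 probe ILMN_1241903 the knockout mice read -0.555, -0.758 and -0.696 and the controls 0.0498, 0.109 and -0.145. It fell by 0.674 z units (limma adjusted p = 0.00265). ILMN_1221264 fell by 0.376 (limma adjusted p = 0.046, and 0.141 without a variance trend and up to 0.267 without 1 mouse). The third Klf4 probe, ILMN_2999439, was the brightest, at mean percentiles of 75.7 in the knockout and 75.1 in the control mice. It showed no loss, with a difference of 0.0367 (limma adjusted p = 0.944). The 2 probes that fell lay at mean percentiles of 28.25 and 27.15 in the knockout and 66.73 and 58.59 in the control mice. These 2 Klf4 probes were the only calls among the 15418 probes bright enough to test. Of 11 thymocyte markers 10 were bright enough to test, and the dim gene was Cd8a, while the brighter Cd8b1 probe averaged percentile 99.95. Summed thymocyte marker scores ran from 22.4 to 22.8 in the knockout mice and from 22.8 to 23.8 in the controls, and the ranges just touched. Median percentiles over the mice were 46.3 to 53.5 for 4 B cell genes, 69.0 to 74.0 for 4 myeloid genes, 47.1 to 58.0 for 4 NK genes and 50.8 to 56.2 for 4 stromal genes, and the 2 erythroid genes were both dim. These medians hide brighter single genes. Cd79b averaged percentile 81.1. The brightest Lyz2 probe ran from percentile 87.3 to 95.6, with scores of 1.34 to 2.25 over the mice. All 3 tested myeloid genes had a negative difference (median -0.111), and 0 were called. Control 3 stood apart on sex-linked genes, with Xist probe ILMN_3022688 at 2.12 against -0.558 to -0.404 in the other mice, and Eif2s3y at -0.835 against 1.53 to 1.89. The difference of each light chain probe without control 3 is given below with its gene.

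Cytoplasmic dynein 1 is built on a heavy chain that walks, intermediate chains that hold the light chains, and light intermediate chains. Dynactin is a separate complex that activates it. DYNLL1 and DYNLL2, also called LC8, are near-identical homodimers that also bind many proteins outside the motor, among them the pro-apoptotic proteins BIM and BMF and the transcription factor ATMIN, which activates Dynll1 transcription in mouse B cells. DYNLRB1 belongs to the roadblock family and DYNLT3 to the Tctex family. In T lymphocytes dynein draws the centrosome toward the site of contact with an antigen-presenting cell.

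The starts of Dynll1 and Dynlrb1 are shown because KLF proteins bind CACCC-type letters and Dynll1 had the difference largest in size among the 5 probes. Entries of 300 bases, 250 before the start site and 50 from it on, come from RefSeq on GRCm38.p6 and were found for 3 of the 4 genes, with 2 starts for Dynlrb1. Both strands were searched for CACCC and for its longer form CCACACCC, whose matches overlap. The CCAAT box, the TATAAA box, the cyclic AMP element TGACGTCA and the palindrome of the factor NRF1 were searched as well. Of the 32851 promoter entries 3.56% held the longer KLF form, 37.4% a CCAAT box, 13.6% a TATAAA box, 1.79% the cyclic AMP element and 0.971% the NRF1 palindrome. Capitals mark matches, read 5′ to 3′ in the direction of the gene.
Dynll1, chr5:115300941-115301240, minus strand: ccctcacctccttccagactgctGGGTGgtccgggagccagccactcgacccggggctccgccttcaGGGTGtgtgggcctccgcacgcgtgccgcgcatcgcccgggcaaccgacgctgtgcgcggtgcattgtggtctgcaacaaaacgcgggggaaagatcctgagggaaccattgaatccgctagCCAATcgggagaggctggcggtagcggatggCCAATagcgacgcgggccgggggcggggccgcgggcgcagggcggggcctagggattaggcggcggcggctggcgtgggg
Dynlrb1, second start, chr2:155236358-155236657, plus strand: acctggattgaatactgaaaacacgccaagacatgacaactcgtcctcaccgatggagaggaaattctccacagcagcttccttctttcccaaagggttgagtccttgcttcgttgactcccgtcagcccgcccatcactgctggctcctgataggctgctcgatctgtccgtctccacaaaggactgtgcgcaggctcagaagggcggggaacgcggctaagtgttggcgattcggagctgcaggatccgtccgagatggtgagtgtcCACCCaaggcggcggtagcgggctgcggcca
The Dynll1 entry held 2 CACCC matches, both as GGGTG, beginning at bases -227 and -183 from the start site, and 2 CCAAT matches beginning at -61 and -30. At least 2 CACCC matches were present in 25.7% of the entries and at least 2 CCAAT matches in 11.7%. The second Dynlrb1 start held 1 CACCC match, beginning at base 20 of the transcribed part, and 57.5% of entries held at least 1. The other letters searched had 0 matches in these entries. The first Dynlrb1 start and the Dynlt3 entry (chromosome X) held none of the letters searched. These matches are descriptions of letters and not of binding.

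Dynll1, the LC8 chain with 1 probe, was lower in every knockout mouse than in every control mouse. Probe ILMN_2788121 read 2.42, 2.59 and 2.67 in knockouts 1 to 3 and 2.93, 2.84 and 2.86 in controls 1 to 3. The lowest control stood 0.176 above the highest knockout, and knockout 1 was the lowest of the 6 mice. Knockout mice averaged 2.56 ± 0.125 (SD, n = 3) and controls 2.88 ± 0.0476 (SD, n = 3), which differ by -0.320 (SE 0.0585). The spread among the knockout mice was wider than among the controls. Within its array the probe ranked at percentiles 96.6, 97.5 and 97.8 in the knockout and 98.6, 98.3 and 98.4 in the control mice, so the transcript was among the brighter ones in both genotypes. Of 15418 tested probes 20 had a lower difference. With 1 probe on the array, no other probe of the gene could be set beside it. Without knockout 1 the difference was -0.252, without control 3 it was -0.329, and on the deposited scores it was -0.295.

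Dynll2, which encodes the near-identical LC8 chain, gave no separation on its brighter probe. ILMN_2609052 read 0.573, 0.351 and 0.437 in knockouts 1 to 3 and 0.460, 0.580 and 0.367 in controls 1 to 3. The groups overlapped over nearly their whole ranges, with knockout 1 and control 2 highest. Knockout mice averaged 0.454 ± 0.112 (SD, n = 3) and controls 0.469 ± 0.107 (SD, n = 3). They differ by -0.0152 (SE 0.0703), and the sign turned without knockout 2 (0.0362) and without control 2 (0.0402). Without control 3 the difference was -0.0662. The second Dynll2 probe, ILMN_2623402, lay at percentiles 3.48 to 8.03 in the knockout and 9.78 to 19.9 in the control mice, under the filter on dim probes. Its scores were -0.796, -0.812 and -0.837 in knockouts 1 to 3 and -0.728, -0.762 and -0.785 in controls 1 to 3, with a gap of only 0.0118 between the groups. The difference of this dim probe was -0.0570, and -0.0703 without control 3. On the deposited scores they overlapped, with control 3 at -0.813 below knockouts 1 and 2 at -0.788 and -0.799. Over the 6 mice the Dynll2 probes correlated with each other at Pearson r of 0.299, a description of points that share arrays and RNA.

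Dynlrb1, the roadblock light chain, was nearly level across the mice. Probe ILMN_2589814 read 2.53, 2.55 and 2.51 in knockouts 1 to 3 and 2.52, 2.60 and 2.59 in controls 1 to 3. Control 1 lay among the knockout mice, so the groups overlapped. Averages were 2.53 ± 0.0197 (SD, n = 3) in knockout and 2.57 ± 0.0466 (SD, n = 3) in control mice, a step of -0.0395 (SE 0.0441) within a range of 0.0918 over all 6 mice. The difference was -0.0662 without control 1, -0.0235 without control 2, -0.0287 without control 3 and -0.0221 on the deposited scores.

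Dynlt3, the X-linked Tctex light chain, was lower in every knockout mouse than in every control mouse, by less than Dynll1. Probe ILMN_1216559 read 1.12, 1.12 and 1.13 in knockouts 1 to 3 and 1.30, 1.23 and 1.21 in controls 1 to 3. The knockout mice were close together, and a gap of 0.0856 parted them from the lowest control. Knockout mice averaged 1.12 ± 0.00771 (SD, n = 3) and controls 1.25 ± 0.0486 (SD, n = 3). They differ by -0.128 (SE 0.0503), and mean percentiles were 84.5 and 86.2. Control 3, which stood apart on Xist and Eif2s3y, had the lowest control value, and without it the difference was -0.145. Without control 1 it was -0.100.

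**Figure D1:**
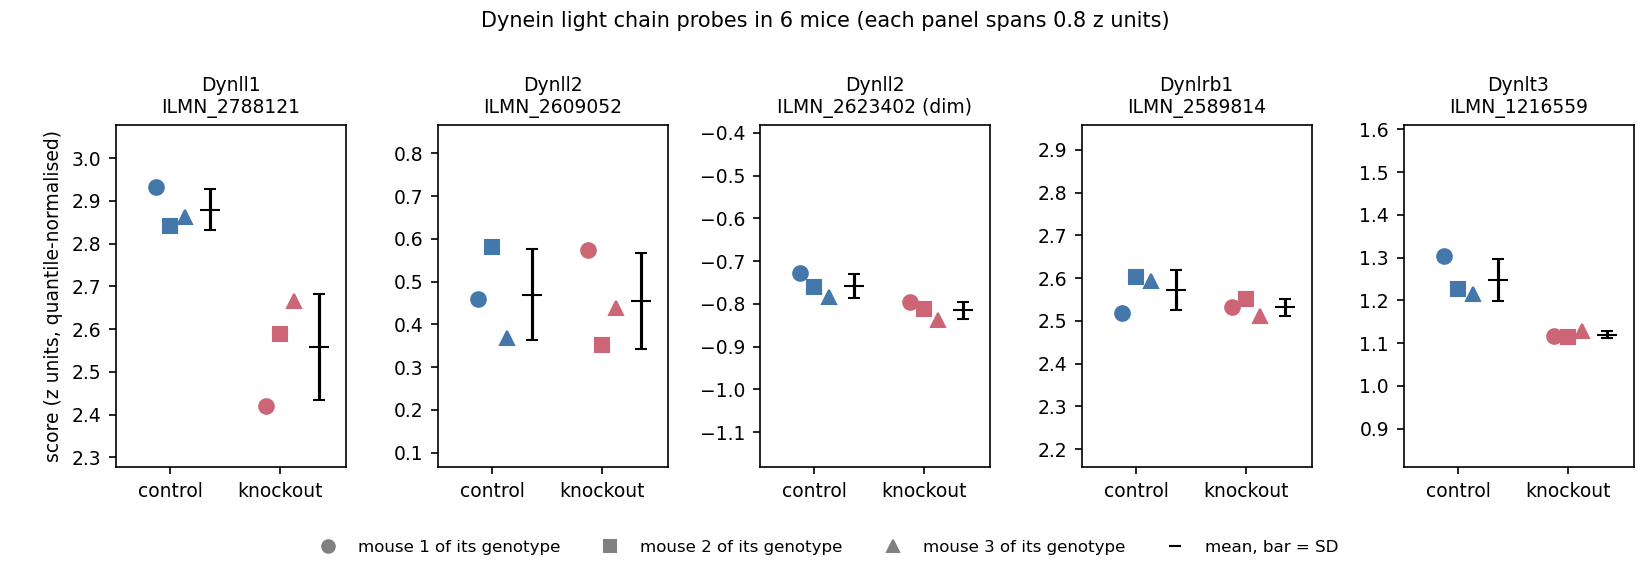
Scores in z units (vertical axis) of the 5 probes in 3 control and 3 knockout mice, with 1 symbol per mouse, the group mean as a dash and the SD as a bar. Knockout mice lie below all controls for Dynll1 (gap 0.176), Dynlt3 (gap 0.0856) and, narrowly, the dim Dynll2 probe (gap 0.0118), and the groups overlap for the other 2 probes.

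Of the 4 tested probes 2 had knockout mice wholly below controls, those of Dynll1 and Dynlt3, where 7.45% of all 15418 tested probes did so, and 0 lay wholly above, where 6.62% did. That contrast was in view when the genes were chosen, so nothing is read from the count. Dynll1 and Dynlt3 ordered the 6 mice much alike, with Pearson r of 0.899 and Spearman rho of 0.886, and r of 0.429 once the genotype means were taken out. Dynll1 and the brighter Dynll2 probe had r of -0.176, and Dynll1 and Dynlrb1 0.339. Among 14460 named tested probes outside Dynll1 the Dynlt3 probe had an r with Dynll1 above that of 97.7%. Dynlrb1 had an r above that of 68.6% and Dynll2 above that of 39.3%. Dynll1 and Dynlt3 parted by genotype in the same direction, which by itself raises r. The rank of Dynlt3 is therefore no separate support for a likeness. The spread within genotypes also differed. A smaller residual SD than that of Dynll1 was found in 85.7% of tested probes and than that of the brighter Dynll2 probe in 91.9%, against 13.7% for Dynlrb1 and 12.6% for Dynlt3.

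**Figure D2:**
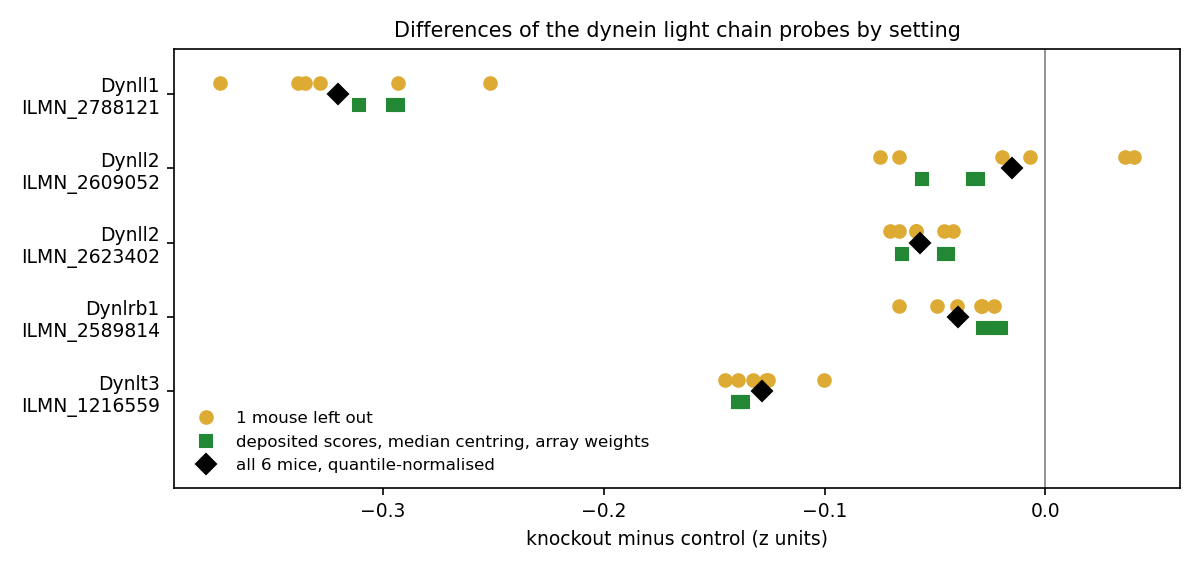
Knockout minus control difference in z units (horizontal axis) of each probe with all 6 mice (diamonds), with 1 mouse left out (circles) and with deposited scores, median centring or array weights (squares). Dynll1 stays between -0.374 and -0.252 and Dynlt3 between -0.145 and -0.100, while the brighter Dynll2 probe falls on either side of 0.

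Of 10 tested thymocyte markers 3 (30.0%) did not overlap between genotypes, against 14.1% of all tested probes. Themis, needed for positive selection, read 1.70, 1.63 and 1.73 in knockouts 1 to 3 and 1.92, 1.76 and 2.09 in controls 1 to 3. Dntt, the terminal deoxynucleotidyl transferase gene, and Rag1, a recombinase gene, also had every knockout mouse below every control, with differences of -0.137 and -0.0767. The other 7 overlapped. Of these, Ccr7 differed by -0.139, as much as Dntt, Cd3g by -0.0673 and Il7r by 0.0541. Ptcra, the pre-T-cell receptor chain, lay at -0.00526, Cd8b1 at -0.00839, Cd4 at 0.0198 and Cd3e at 0.0132. Limma called 0 of the 10 at an adjusted p under 0.05, and 2 (20.0%) had an unadjusted p under 0.05, against 8.82% of tested probes. Their part in the Dynll1 and Dynlt3 differences was not tested, and in bulk RNA fewer cells of a type and less RNA per cell cannot be told apart.

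The rest of the dynein machinery was examined to see whether other parts of the motor differed. In all, 6 lists held 48 tested genes, each counted on its brightest probe. Their scores leaned up in the knockout for 27 genes and down for 21, and the median difference was 0.00605, where that of all 10399 genes tested was -0.00253. Limma called 0 of the 48 at an adjusted p under 0.05, where 0.013% of tested probes passed. At an unadjusted p under 0.05 there were 2 of 48 (4.17%), both lower, against 8.82% of all tested probes. Knockout and control mice did not overlap for 6 of the 48 (12.5%), against 14.1% of tested probes.

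Within cytoplasmic dynein 1 itself the difference was negative for 4 of 5 genes (median -0.0473). Dync1i2, the intermediate chain on which the light chains assemble, read 2.43, 2.44 and 2.49 in knockouts 1 to 3 and 2.54, 2.54 and 2.58 in controls 1 to 3. Every knockout mouse lay below every control, and the difference of -0.102 (SE 0.0435) did not pass (limma adjusted p = 0.524). Dync1li2, a light intermediate chain, did not overlap either (-0.0473, limma adjusted p = 0.833). Dync1li1, the other light intermediate chain, differed by -0.0488 with overlapping groups. Dync1h1, the heavy chain with the motor domain, differed by 0.0547 (SE 0.0639, limma adjusted p = 0.843), and without knockout 1 the difference was -0.00884.

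Among 8 other light chain genes on the array, which include axonemal ones, 4 were dim in thymocytes: Dnal1, Dnal4, Dynlt1b and Tctex1d4. Dynlrb2, the second roadblock gene, read -0.553, -0.593 and -0.636 in knockouts 1 to 3 and -0.541, -0.489 and -0.543 in controls 1 to 3. Its knockout mice lay just below its controls, with a difference of -0.0698 (SE 0.0396, limma adjusted p = 0.645). Tctex1d1 and Tctex1d2, of the Tctex family, differed by -0.00988 and 0.0292 with overlapping groups.

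Dynactin, which ties dynein to cargo and starts its movement, was split between directions. The difference was positive for 5 of its 9 tested genes and negative for 4 (median 0.00663). Capza1, an actin capping subunit that dynactin shares with the actin cytoskeleton, read 1.51, 1.55 and 1.52 in knockouts 1 to 3 and 1.79, 1.60 and 1.68 in controls 1 to 3. All its knockout values lay below the controls, and the difference of -0.162 (SE 0.0546) did not pass (limma adjusted p = 0.440). Dctn5, a subunit of the pointed end, differed by -0.0897 with groups that did not overlap. On a dimmer Capzb probe every knockout mouse lay above every control (0.105), while the brighter Capzb probes gave -0.032 and -0.033 with overlap. Dctn4 differed by 0.0693 on its brighter probe and by -0.0639 on the other, and Dctn1, the p150 subunit that binds intermediate chains, by 0.0389 (limma adjusted p = 0.891).

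The difference was positive for 10 of 17 regulators and adaptors (median 0.0254), and genotypes overlapped on the brightest probe of all 17. On other tested probes every knockout mouse lay below every control for Bicd2 (-0.0966) and Trak2 (-0.0730). Clip1, which links microtubule tips to dynactin, differed by 0.120 (SE 0.0612, limma adjusted p = 0.604), and by 0.0622 and 0.0989 on its other probes. Nin, which encodes the centrosomal adaptor ninein, and Hook1 differed by 0.0846 and 0.0745. Other tested probes of Nin and Hook1 gave 0.00329 and, for Hook1, 0.000284 and -0.0327. Pafah1b1, the LIS1 gene, differed by -0.0443 on its brightest probe (limma adjusted p = 0.823) and by -0.132 on a dimmer tested one. Of the dynein 2 genes, which serve cilia, Dync2li1 was higher in every knockout mouse than in every control (0.0838, SE 0.0440, limma adjusted p = 0.616), with Wdr34 at 0.0130 and Wdr60 at -0.0636.

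For 7 of 10 binding partners of LC8 the difference was positive (median 0.0158), and genotypes overlapped on the brightest probe of all 10. Atmin, the activator of Dynll1, read 1.46, 1.40 and 1.45 in knockouts 1 to 3 and 1.45, 1.36 and 1.46 in controls 1 to 3. Its difference was 0.0189 (SE 0.0508, limma adjusted p = 0.949), and its other tested probes gave 0.0511, with every knockout mouse above every control, and 0.0323 with overlap. Bcl2l11, which encodes BIM, differed by 0.0197 on its brightest probe (limma adjusted p = 0.958) and by -0.0167 to 0.0823 on the others. Bmf differed by 0.00135 (SE 0.0584, limma adjusted p = 0.998). Nek9, a mitotic kinase, differed by 0.117, Gphn, which encodes gephyrin, by -0.101 and Nos1, the neuronal nitric oxide synthase gene, by 0.0901. The other tested Gphn probes gave only -0.0149 and -0.0146 and the other Nek9 probe 0.0813, all with overlap.

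**Figure D3:**
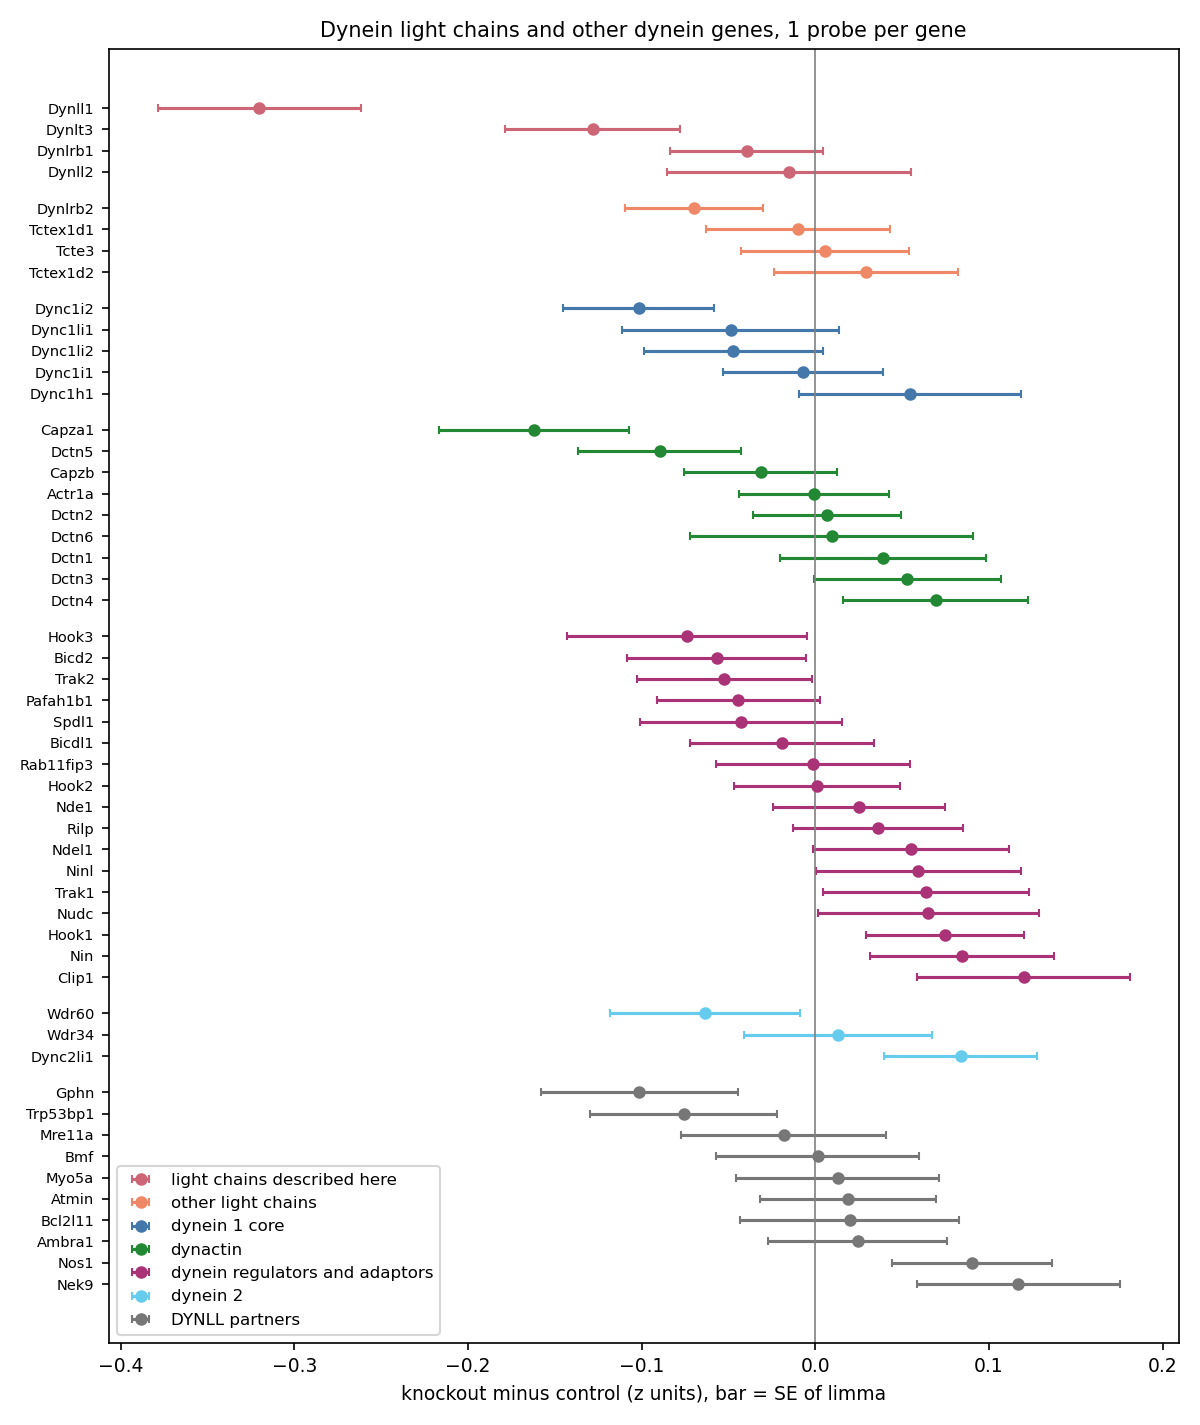
Knockout minus control difference in z units (horizontal axis) with limma's SE as bars for the 4 light chain genes and 48 other dynein genes, 1 probe per gene, grouped by list. Dynll1 lies at -0.320, while the 48 others lie between -0.162 for Capza1 and 0.120 for Clip1.

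Genes whose scores followed Dynll1 most closely over the 6 mice were found by Pearson r among the 14460 named tested probes, as a description of points that share arrays. The 5 highest were Pcf11, a cleavage factor of mRNA 3′ ends (r 0.998), Zfp420 (r 0.996), Rgs14, a regulator of G-protein signalling (r 0.992), Pigc, an enzyme of GPI anchor synthesis (r 0.991), and Stk17b, a kinase of the death-associated family (r 0.989). With the genotype means taken out their r remained between 0.942 and 0.993. Without the mice farthest from the Dynll1 median, knockout 1 and control 1, r was 0.970 to 0.997. Both ranges come from the same mice by which the genes were picked, so high values follow in part from the picking. They are no separate support for the likeness. Stk17b read 1.34, 1.52 and 1.52 in knockouts 1 to 3 and 1.86, 1.73 and 1.76 in controls 1 to 3, so knockout 1 was lowest and control 1 highest, as for Dynll1.

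The 5 most opposite genes were Cirbp, a cold-inducible RNA-binding protein (r -0.998), Cracr2a (r -0.995), Atp2a3, a calcium pump of the endoplasmic reticulum (r -0.994), Fbrsl1 (r -0.990) and Xpnpep1, an aminopeptidase (r -0.988). Cracr2a encodes a calcium sensor whose long form is known from human T cells as a dynein adaptor. Its probe ILMN_3108021 read -0.237, -0.331 and -0.353 in knockouts 1 to 3 and -0.502, -0.448 and -0.481 in controls 1 to 3. Every knockout mouse lay above every control on that probe (difference 0.170), but the other Cracr2a probes gave differences of 0.0190 and 0.0422 with overlapping groups and r of -0.382 and -0.536. The other Atp2a3 probes had r of -0.0632 and -0.175, and the other Pigc probe 0.459, all with overlapping groups. The other tested Xpnpep1 probes had r of -0.940, with every knockout mouse above every control, and -0.0338 with overlap. A dim Xpnpep1 probe had r of 0.499, with every knockout mouse below every control (difference -0.0768). An r at or above 0.95 was found for 83 probes (0.574%) and at or below -0.95 for 61 (0.422%).

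**Figure D4:**
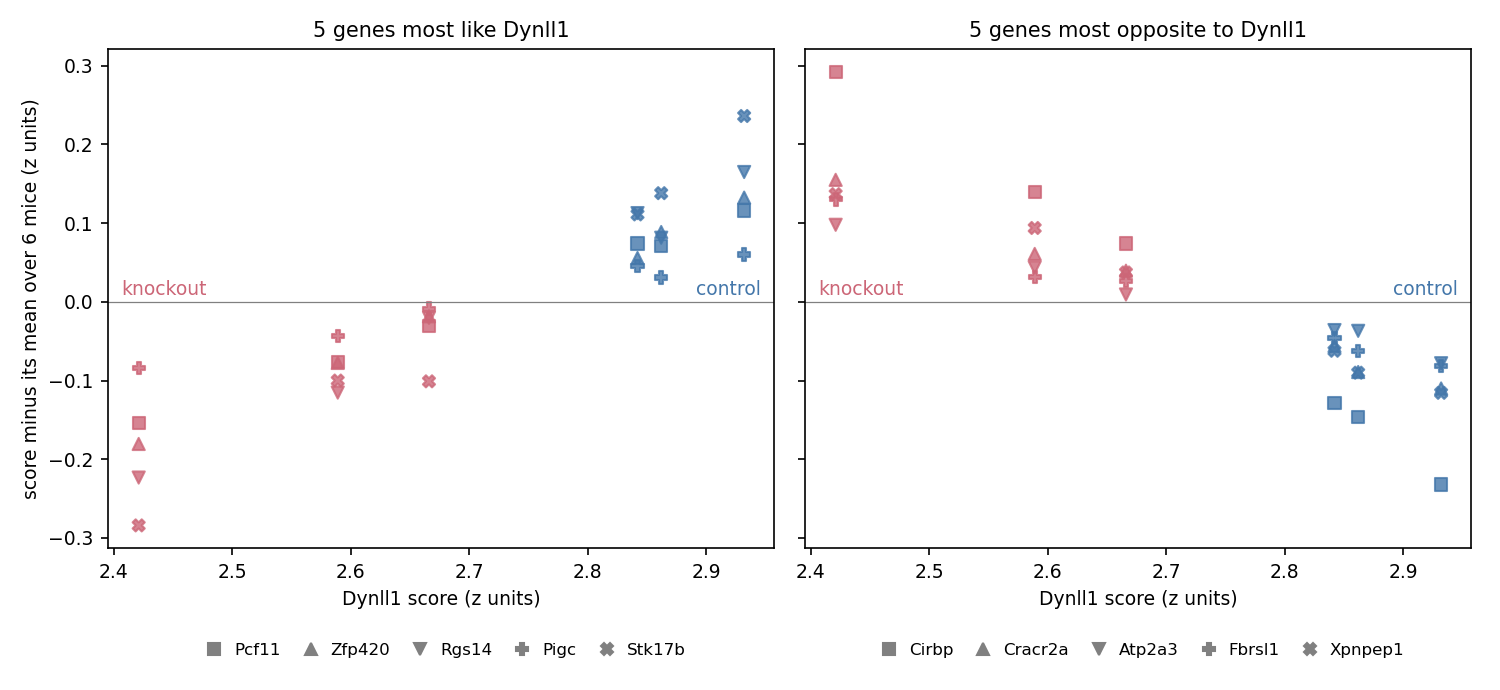
Score of each of the 10 genes less its mean over 6 mice (vertical axis, z units) against the Dynll1 score (horizontal axis, z units), with control mice in blue and knockout mice in red. Genes on the left rise with Dynll1, from Pigc to Stk17b in steepness, and genes on the right fall, with Cirbp steepest.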

How the data were processed

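Transcripts were measured on 1 array per mouse, 3 knockout and 3 control. The deposited values are scores, which the authors standardised within each array (mean 0, SD 1 over 25697 probes), as the values show. The knockout columns had medians of -0.493, -0.489 and -0.490, the control columns of -0.488, -0.491 and -0.487. GenomeStudio 2010.1 is named, with no role, in the submitters' processing notes. For background correction, the scale before standardisation and detection calls the sources used here give nothing, so no probe was called above background. Columns of other samples numbered 0. Precision is limited by the number of arrays.

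Probe symbols came from GEO's platform annotation, updated by gene identifier to RefSeq symbols of GRCm38.p6: 23978 probes had 1 symbol and 1719 had none. Quartiles of the arrays differed by up to 6.93% of the interquartile range, and scores were quantile-normalized. Probes with a mean under the 40th percentile (10279) were left out, and 15418 were tested with limma 3.58.1 in R 4.3.3 (lmFit, eBayes with a trend, two-sided, Benjamini-Hochberg over all tested probes, threshold 0.05). The planned test, written before the unit was known, was run on the score scale. Members are described with limma's SE and no p. The dim Dynll2 probe's SE is not printed. For other genes the tested probe with the highest mean stands for the gene. On simulated scores for these 15418 probes the test recovered 61.2% of 67 probes changed by 0.25 z units. It recovered 94.0% of 67 at 0.5 and 100% of 66 at 1, with 8 false calls elsewhere. The simulated noise was independent between probes, and the Benjamini-Hochberg cut depends on how many probes change. The real data gave 2 calls, so these shares may be too high for them.

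Genes named were every member probe, Klf4, the 3 largest differences per dynein list, Dync1h1, Dctn1, Pafah1b1, Bcl2l11, Bmf and Atmin, and the 5 genes most like and most opposite to Dynll1. Dync1li2, the thymocyte markers without overlap and the probes of Capzb, Bicd2 and Trak2 without overlap were named after their values were seen. The members and lists were chosen with earlier results of these data known. The replicates are separate mice. Same-numbered knockout and control mice had deviations from their group means that correlated at -0.0338, 0.167 and 0.0346, so the numbers were not taken as pairs.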

Additional observations from a re-analysis of the deposited data

How the results depend on the processing

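The 5 light chain differences moved by less than 1 SD between replicates in each of the 14 alternative settings. Most of these settings could not have moved them further. The filters, the variance trend, robust variance and the replicate block leave a difference as it is. With 3 mice per group, leaving out 1 cannot move it by 1 SD. Only deposited scores, median centring and array weights could have done that. Dynll1, Dynlt3, Dynlrb1 and the dim Dynll2 probe stayed below 0 throughout, and the brighter Dynll2 probe in 12 of 14 settings. Leaving out 1 mouse gave -0.374 to -0.252 for Dynll1, -0.145 to -0.100 for Dynlt3, -0.0662 to -0.0235 for Dynlrb1, and -0.0749 to 0.0402 and -0.0703 to -0.0420 for the brighter and dimmer Dynll2 probes. With array weights the brighter Dynll2 probe gave -0.0559. With the replicate block, which leaves these differences as they are in a balanced design, Dynll1 stood at -0.320. Over all tested probes the calls were 0 higher and 2 lower, both of them probes of Klf4 itself. The higher count was 1 with robust variance, 2 with the replicate block and 0 to 1 without 1 mouse, where 1 arose without control 3. The lower count was 0 with the filter at the 60th percentile, which removes both Klf4 probes from the test, 1 without a variance trend and 1 to 4 without 1 mouse, with 4 without knockout 1 and 1 without knockout 3, control 1 or control 2. The cause of the other shifts was not tested. Of the other dynein genes 0 were called in all 14 settings, with 39 genes tested at the 60th percentile filter and 55 with no filter, and the adjusted p of Dync1i2 ran from 0.397 to 0.780 and that of Capza1 from 0.303 to 0.789. The median difference kept its sign in 14 of 14 settings for the dynein 1 core, 13 for the regulators and for the LC8 partners, 11 for dynactin and 10 for the other light chains and for dynein 2. The variance trend, robust variance and the replicate block leave these medians as they are. Without detection calls, what signal over background limits is not known here.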
